A study of Mus musculus with 6 samples.

Results

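The 10 genes described here act at successive steps of the microRNA pathway. *Lin28a* and *Lin28b* encode RNA-binding proteins that block maturation of let-7, *Trim71* encodes an RNA-binding ubiquitin ligase, *Drosha* and *Dgcr8* encode the microprocessor, *Dicer1* encodes the second nuclease of the pathway, and *Ago1* to *Ago4* encode the Argonaute proteins. They were chosen by name, through the Ensembl identifier of each gene. All 10 were found among the 35565 genes listed, and all 10 passed the filter on low counts, as did 15110 genes in all.

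The study asked how gastruloids, aggregates of mouse embryonic stem cells that elongate and form germ layer derivatives, develop when the long non-coding RNA *T-UCstem1* is silenced. Bulk RNA-seq was made from gastruloids at day 5, with 3 libraries of Control and 3 of *T-UCstem1* KD-1. Both groups came from the TBV2 line of mouse embryonic stem cells (129/SvP background) and received a pulse of the WNT activator CHIR99021 during gastruloid formation. The Control cells are labelled wild type and described as non-targeting (NT) cells, and KD-1 is a single knockdown clone, so a difference between the lines and an effect of silencing cannot be told apart. The design names the libraries of a group as biological replicates, without saying which cultures they came from, and the level of *T-UCstem1* was not analysed here.

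Library totals ran from 20982249 to 56674906 counts in Control and from 41180012 to 85561026 in KD-1, and libraries are named by their depth within their group. CPM here means counts divided by the TMM-scaled size of the library and expressed on a common scale. In the library with the fewest reads a gene at 0 counts could still lie at 0.143 CPM, taking 3 counts as the limit, and each of the 10 genes was above that level in every library. The Control library of middle depth stood apart from the other Control libraries: it held fewer reads of long transcripts, with a median log2 ratio to them of -0.247 over the 1432 tested genes whose longest transcript reaches 8000 bases. KD-1 libraries held more RNA of naive pluripotency markers (summed level 1384 to 1421 CPM against 424.4 to 474.6) and of neural markers (258.2 to 264.2 CPM against 43.45 to 46.86). They held less of the somite and paraxial mesoderm markers (45.49 to 46.01 CPM against 521.7 to 602.4). Most of the KD-1 sum was *Pax3*, at a mean of 42.21 CPM beside 89.65 in Control. Most of the Control sum was *Meox1*, at a mean of 371.3 CPM beside 0.4233 in KD-1. *Msgn1*, of that list, was at 0 in KD-1 but also at 0, 0 and 3 counts in Control, too few to test. KD-1 libraries also held less of the fibroblast markers that feeder cells would bring (0.8635 to 1.05 CPM against 34.04 to 38.83). *Lum* and *Postn* were at 0 in KD-1. Most of the fibroblast sum was *Fap*, at a mean of 27.95 CPM in Control, and *Col3a1* had 5.436 CPM there. *Col1a1*, *Col1a2*, *Dcn*, *Lum* and *Postn* had Control means of 0.273 to 1.31 CPM. *Thy1* lay the other way, at a mean of 0.1325 CPM in Control and 0.451 in KD-1, and was not called. In whole gastruloids, a different mixture of cells and a different amount of RNA per cell cannot be told apart, and the part of this mixture in the results that follow was not tested.

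A microRNA is cut from its primary transcript by the microprocessor, exported, cut again by Dicer and loaded into an Argonaute, which it guides to messenger RNAs that pair with its seed, bases 2 to 8. In pluripotent cells LIN28 binds the let-7 precursor and recruits terminal uridylyl transferases that mark it for decay, while the miR-290 and miR-302 families are abundant. As cells differentiate, let-7 accumulates and represses *Lin28a*, *Lin28b* and *Trim71*, so that let-7 and these genes oppose each other. MicroRNAs themselves were not measured here.

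The let-7 family and the miR-290 and miR-302 family are shown because their seeds set which of the 10 messages each could pair with. Capitals mark the seed in these mature sequences from RefSeq (GRCm38.p6), where the 9 let-7 and miR-98 sequences listed there share 1 seed and miR-294 and miR-302b share another.
let-7a-5p: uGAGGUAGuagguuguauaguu
let-7g-5p: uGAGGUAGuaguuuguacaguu
miR-98-5p: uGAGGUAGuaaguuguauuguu
miR-294-3p: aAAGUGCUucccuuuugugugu
miR-302b-3p: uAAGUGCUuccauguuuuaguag
LIN28 is known to contact GGAG in the loop of the let-7 hairpin. Of the 12 let-7 and miR-98 hairpins in RefSeq, 9 held GGAG between the arms and 3 did not (let-7b, let-7c-2 and miR-98). The hairpins of let-7g, with GGAG in capitals, and of let-7b, without it, show the difference.
let-7g hairpin: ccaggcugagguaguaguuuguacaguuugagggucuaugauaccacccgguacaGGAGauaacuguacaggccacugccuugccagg
let-7b hairpin: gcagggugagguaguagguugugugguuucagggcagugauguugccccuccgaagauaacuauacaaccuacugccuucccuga

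Of the 10 messages, *Lin28a*, *Lin28b*, *Trim71*, *Ago2* and *Ago3* held a match to the let-7 seed in the 3′ UTR of their canonical transcript (GENCODE vM39, GRCm39, message strand). The match searched is the 7-mer CTACCTC, and an 8-mer site is this match followed by A. *Trim71* held 4 matches, all of them 8-mers. *Lin28a* held 2, both 8-mers, and *Lin28b* held 4, of which 1 was an 8-mer. *Ago2* held 3 with 1 8-mer, *Ago3* held 1, an 8-mer, and the other 5 genes held none. All the 8-mers are shown, with capitals for the 7-mer, whose position is given, and each gene lies on the minus strand.
*Trim71*, chr9:114341541-114341547: ttgcctaagtcCTACCTCagct
*Trim71*, chr9:114341445-114341451: ataatttctatCTACCTCaact
*Trim71*, chr9:114338116-114338122: gtatggattttCTACCTCaatt
*Trim71*, chr9:114338090-114338096: caaaaagttgtCTACCTCacgt
*Lin28a*, chr4:133732501-133732507: agcctgttgaaCTACCTCattt
*Lin28a*, chr4:133731863-133731869: tcgccacaaacCTACCTCactg
*Lin28b*, chr10:45257119-45257125: gggcgggaagtCTACCTCatgc
*Ago2*, chr15:72969832-72969838: acaatgtggatCTACCTCagtt
*Ago3*, chr4:126228834-126228840: cctgccctcacCTACCTCacca
Of 20647 genes with a 3′ UTR, 3.33% held the 8-mer and 9.97% the 7-mer, and 4 or more 8-mers were found in 2 genes, *Trim71* and *Trim6*, joined by *Mcf2l* with 7 where the longest 3′ UTR of each gene was searched instead. These matches are descriptions of the sequence and not shown binding sites. The search for the miR-290 and miR-302 seed, the 7-mer AGCACTT, found 3 matches in *Ago3*, of which these 2 were 8-mers, and 1 7-mer each in *Lin28b* and *Trim71*.
*Ago3*, chr4:126232105-126232111: actttaattgcAGCACTTaaga
*Ago3*, chr4:126229309-126229315: caaatgttaagAGCACTTattg

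Of the 10 genes, 3 were called higher in KD-1 (*Trim71*, *Ago2* and *Ago3*) and 0 were called lower. A call required an adjusted p below 0.05 in edgeR's quasi-likelihood test with Benjamini-Hochberg adjustment and a fold change of more than 1.5 in either direction. Of all genes tested, 37.7% were called, 19.7% higher and 18.1% lower, so that 3 of 10 is close to the share of all genes. The median log2 fold change was 0.449 over the 10 genes and -0.0147 over all genes tested. *Lin28a*, *Drosha*, *Dgcr8* and *Ago1* passed the adjusted p but changed by less than 1.5-fold, which makes 7 of 10 past that threshold beside 63.5% of all genes. The groups did not overlap for 7 of the 10 genes, beside 70.6% of all genes tested.

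On a scale per kilobase of merged exons, *Lin28a* was the most abundant in Control at 67.4 CPM per kb. *Ago1* (17.1), *Drosha* (15.6) and *Trim71* (14.3) followed with overlapping ranges, then *Lin28b* (12.01), *Ago2* (9.99), *Dgcr8* (9.90) and *Dicer1* (9.18), each overlapping its neighbour, and far lower *Ago3* (1.02) and *Ago4* (0.346). In KD-1 the order was *Lin28a* (95.3), *Trim71* (29.8), *Ago1* (25.2), *Drosha* (20.5), *Ago2* (19.5), *Lin28b* (11.2), *Dicer1* (10.8), *Dgcr8* (8.58), *Ago3* (1.95) and *Ago4* (0.360), and of these neighbours only *Lin28b* and *Dicer1* overlapped. The order depended on the length used. Per kb of the longest annotated transcript, Control ran *Lin28a* (76.8), *Drosha* (24.6), *Lin28b* (20.9), *Ago1* (19.1), *Dgcr8* (16.1), *Dicer1* (15.6), *Trim71* (14.3) and *Ago2* (10.2), and KD-1 ran *Lin28a* (108.5), *Drosha* (32.4), *Trim71* (29.8), *Ago1* (28.2), *Ago2* (19.9), *Lin28b* (19.5), *Dicer1* (18.4) and *Dgcr8* (13.9). On both scales *Lin28a* was first and *Ago3* and *Ago4* were last in both groups.

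**Figure D1:**
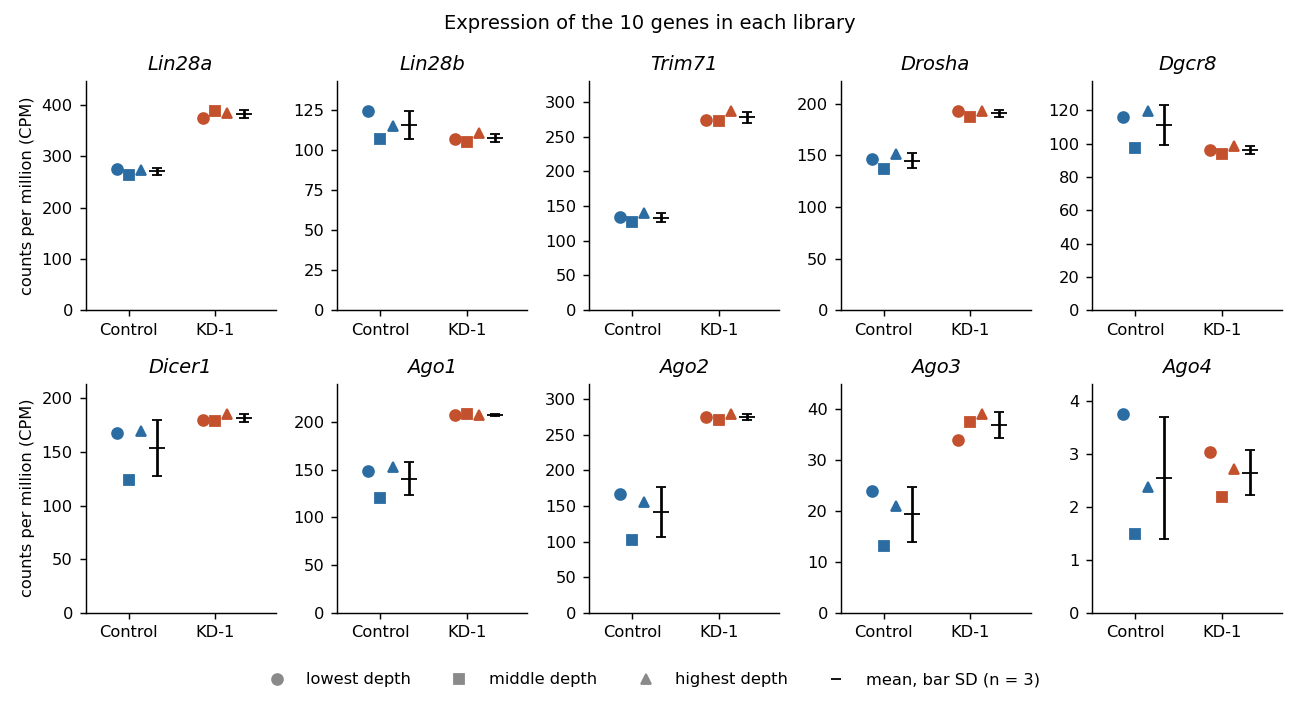
CPM of each of the 10 genes in the 3 Control (blue) and 3 KD-1 (red) libraries, with marker shapes for depth within the group, and the mean and SD (n = 3) in black. Each vertical axis starts at 0. KD-1 lies above Control without overlap in 7 genes, and the middle-depth Control library is the lowest of all 6 for 8 of the 10 genes, all but *Lin28b* and *Dgcr8*.

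Among the regulators of let-7, *Lin28a* and *Trim71* were higher in KD-1 and *Lin28b* was not. *Lin28a*, on chromosome 4, stood at 274.8, 263.7 and 273.3 CPM in the Control libraries of lowest, middle and highest depth and at 374.5, 388.8 and 384.9 CPM in those of KD-1. Each KD-1 library was above each Control library and the spread within groups was small. The log2 fold change was 0.50 (SE 0.05, adjusted p = 4.9e-05, edgeR quasi-likelihood test with Benjamini-Hochberg adjustment), a 1.41-fold difference that did not reach the fold threshold.

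*Lin28b*, its paralog on chromosome 10, stood at 124.7, 107.1 and 115.2 CPM in Control and at 107.2, 105.5 and 110.6 CPM in KD-1. The groups overlapped, and the highest value was a Control library. This gave a log2 fold change of -0.10 (SE 0.07, edgeR adjusted p = 0.21). Without the middle-depth Control library it was -0.15 and its adjusted p fell to 0.016.

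The balance of the LIN28 paralogs was compared on the scale per kb. *Lin28a* stood at 67.4 CPM per kb in Control (SD 1.49, n = 3) and *Lin28b* at 12.01 (SD 0.915). In KD-1 these levels were 95.3 (SD 1.85) and 11.2 (SD 0.270) CPM per kb. The log2 ratio of *Lin28a* to *Lin28b* was 2.40, 2.56 and 2.51 in Control and 3.07, 3.14 and 3.06 in KD-1, so the groups did not overlap. On the linear scale *Lin28a* exceeded *Lin28b* 5.62-fold in Control and 8.52-fold in KD-1, or 3.68-fold and 5.57-fold with the longest transcript as the length, which leaves the difference between groups as it is. The difference of 0.60 on the log2 scale had an exact two-sided permutation p of 0.1, the smallest that 3 libraries against 3 allow.

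*Trim71*, on chromosome 9, encodes a protein known from embryonic stem cells to repress messenger RNAs and from worms as the let-7 target lin-41. It stood at 134.0, 126.6 and 139.7 CPM in Control and at 274.8, 272.5 and 287.3 CPM in KD-1. All KD-1 libraries were at about the same level, well above Control. The log2 fold change of 1.06 (SE 0.06, edgeR adjusted p = 1.4e-06) was the largest estimate among the 10 genes in this test and the only one over 1. This is the gene with 4 let-7 8-mers shown above, and whether they bear on its level was not tested.

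**Figure D2:**
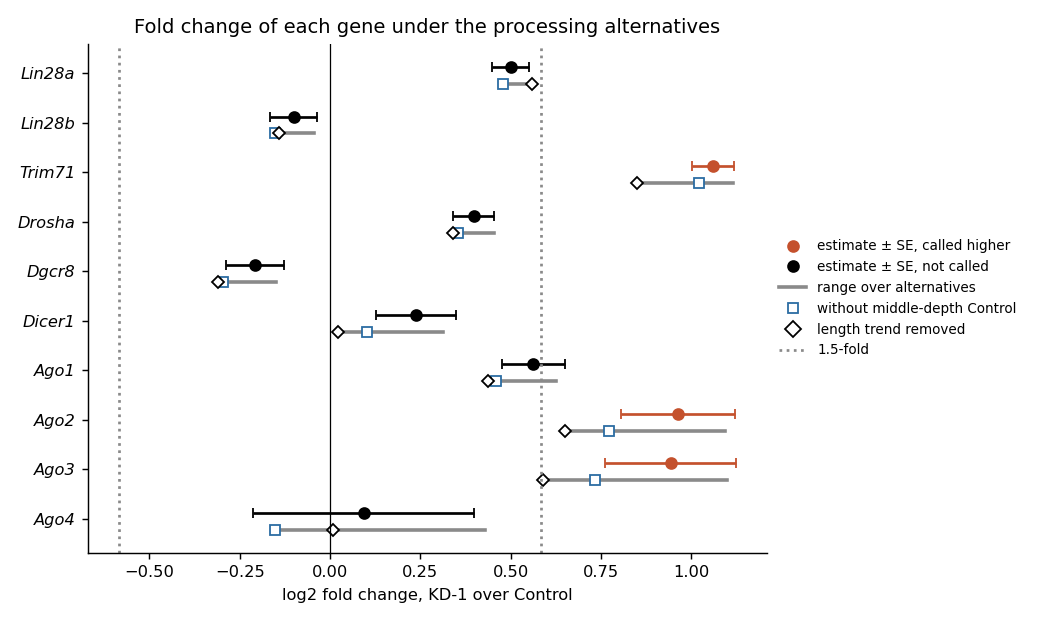
Log2 fold change of KD-1 over Control (horizontal axis) for each gene, with its SE, in red where called higher. Grey bars span the processing alternatives, open squares leave out the middle-depth Control library, open diamonds remove the trend with transcript length, and dotted lines mark 1.5-fold. *Trim71*, *Ago2* and *Ago3* stay right of the dotted line throughout, while the bar of *Ago1* crosses it and that of *Ago4* crosses 0.

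Neither microprocessor subunit was called. *Drosha*, the nuclease that cuts the primary transcript, on chromosome 15, stood at 146.9, 136.6 and 150.9 CPM in Control and at 192.6, 186.8 and 193.0 CPM in KD-1. The groups did not overlap. Its log2 fold change was 0.40 (SE 0.06, edgeR adjusted p = 3.4e-04), below the fold threshold.

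*Dgcr8*, the RNA-binding partner of DROSHA, on chromosome 16, stood at 116.0, 97.22 and 119.6 CPM in Control and at 95.94, 93.95 and 98.44 CPM in KD-1. The groups overlapped through the middle-depth Control library alone. Its log2 fold change was -0.21 (SE 0.08, edgeR adjusted p = 0.05, just under the threshold before rounding). Over the alternatives the adjusted p ran from 0.0001, without the middle-depth Control library, to 0.18, without the middle-depth KD-1 library. Exons of *Dgcr8* overlap those of *Trmt2a* on the opposite strand, which was called lower at -0.59, and of Gm49776 on the same strand, and the sources used here do not state whether counting used strand. Exons of *Lin28a*, *Trim71*, *Drosha*, *Dicer1* and *Ago1* overlap those of long non-coding RNA genes on the opposite strand, which are not among the genes listed.

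*Dicer1*, on chromosome 12, encodes the nuclease that releases the mature duplex from the precursor. It stood at 168.0, 124.1 and 169.7 CPM in Control and at 179.9, 178.6 and 185.9 CPM in KD-1. KD-1 was above Control, but the Control libraries of lowest and highest depth came close to it and the middle-depth one lay far below. The log2 fold change of 0.24 (SE 0.11) did not pass the test (edgeR adjusted p = 0.09), and it was 0.10 without that library. Its adjusted p was just under 0.05 in the DESeq2 Wald test (0.047). The same held in edgeR with scaling by library size only (0.048) and under a filter of 10 counts or more per library (0.049).

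The Argonautes spanned a wide range of levels. *Ago1*, which lies beside *Ago3* and *Ago4* on chromosome 4, stood at 148.4, 120.4 and 152.8 CPM in Control and at 206.9, 208.7 and 207.0 CPM in KD-1. KD-1 was above Control, with very little spread in KD-1. The log2 fold change was 0.56 (SE 0.09, edgeR adjusted p = 5.6e-04), a 1.48-fold difference just under the fold threshold. It passed under DESeq2 (0.59), under edgeR's RLE scaling (0.59), with scaling by library size only (0.62), under a filter of 10 counts or more per library (0.61) and without the lowest or the highest Control library (0.60 and 0.63), and fell to 0.46 without the middle one.

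*Ago2*, on chromosome 15, encodes the Argonaute that can cut its target. It stood at 166.6, 101.6 and 155.4 CPM in Control and at 274.6, 271.3 and 279.7 CPM in KD-1. KD-1 was far above Control, and Control itself was spread by its middle-depth library. Its log2 fold change was 0.96 (SE 0.16, edgeR adjusted p = 7.2e-04). Without that library it was 0.77 (adjusted p = 3.1e-08), still called. Exons of *Ago2* overlap those of *Chrac1* on the opposite strand, which was called lower (mean 31.96 CPM in Control and 15.99 in KD-1).

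*Ago3* stood at 23.78, 13.17 and 20.87 CPM in Control and at 33.97, 37.45 and 39.06 CPM in KD-1. The groups did not overlap. KD-1 exceeded Control by a log2 fold change of 0.94 (SE 0.18, edgeR adjusted p = 0.0018), which was 0.73 without the middle-depth Control library (adjusted p = 5.2e-06). *Ago4* was the least abundant, at 3.762, 1.48 and 2.383 CPM in Control and 3.029, 2.184 and 2.717 CPM in KD-1. Its groups overlapped, and the log2 fold change of 0.09 (SE 0.31, edgeR adjusted p = 0.80) changed sign between alternatives.

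The make-up of the Argonaute messages was compared as each gene's percentage of the summed reads per kb of the 4 genes. *Ago1* held the largest share, with 57.0%, 64.4% and 59.9% in Control and 53.7%, 54.1% and 53.1% in KD-1. *Ago2* held 37.4%, 31.7% and 35.5% in Control and 41.6%, 41.0% and 41.8% in KD-1. For both genes the groups did not overlap, with a mean difference of -6.81 percentage points for *Ago1* and 6.62 for *Ago2* (exact two-sided permutation p = 0.1 for each, the smallest possible). *Ago3* rested at 3.53% (SD 0.457, n = 3) and 4.14% (SD 0.270) with overlapping groups (exact p = 0.2). *Ago4* held 1.19% (SD 0.386) in Control and 0.766% (SD 0.124) in KD-1 (exact p = 0.1). The 4 shares sum to the whole, so they are not independent, and these are 4 of 5 ratios compared. After Benjamini-Hochberg adjustment none could pass 0.05.

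**Figure D3:**
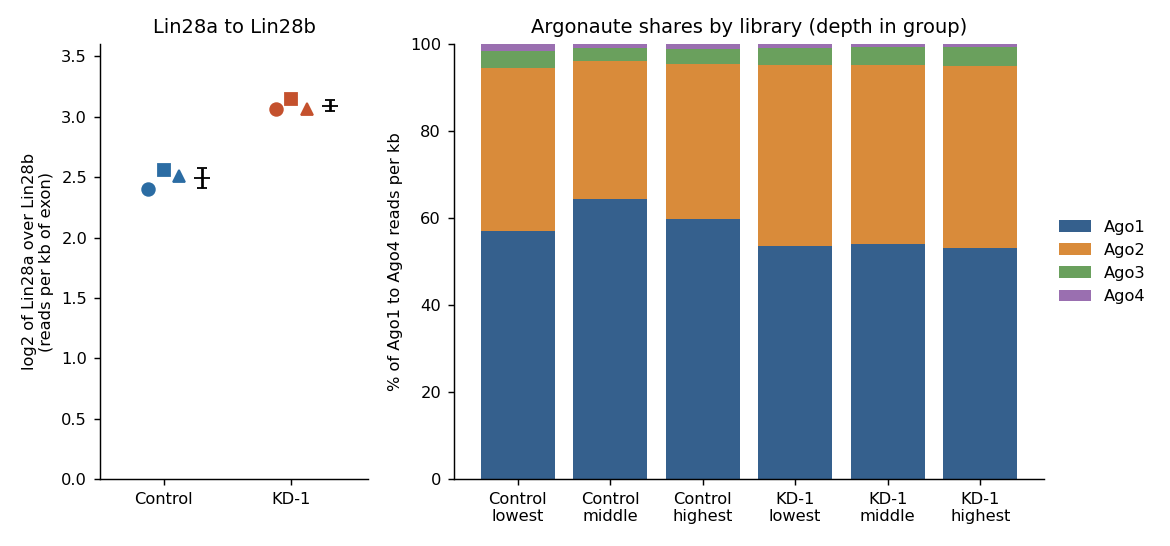
Left, log2 ratio of *Lin28a* to *Lin28b* (reads per kb of exon) in each library, with mean and SD (n = 3). Right, share of each Argonaute in the summed reads per kb of *Ago1* to *Ago4*, in percent, 1 bar per library. The *Lin28a* to *Lin28b* ratio is above 3 in all KD-1 libraries and below 2.6 in all Control libraries, and the *Ago2* band is wider in KD-1.

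Transcript length moved with these results. *Ago2*, *Ago3*, *Trim71* and *Dicer1* have transcripts of 13800, 15608, 9332 and 9851 bases, while the other 6 genes have longest transcripts of 3526 to 7349 bases. Over all tested genes with transcripts of at least 8000 bases the median log2 fold change was 0.224, with 28.5% called higher and 12.9% lower. Over the 2054 genes under 2000 bases it was -0.272, with 16.4% higher and 25.6% lower. Without the middle-depth Control library these medians were 0.144 and -0.200. With each library's trend with transcript length removed, an alternative chosen after that library was seen, the log2 fold change was 0.85 for *Trim71*, 0.65 for *Ago2* and 0.59 for *Ago3*, all 3 still called, *Ago3* by a narrow margin. It was 0.56 for *Lin28a*, 0.44 for *Ago1* and 0.02 for *Dicer1*, and *Dgcr8* stood at -0.31 (edgeR adjusted p = 0.0011). *Ago2* and *Ago1*, at 0.96 and 0.56 before the removal, lay closer together after it. The part of transcript length in the Argonaute shares was not tested. Removing the trend would also remove a real difference that follows length, and the source of the trend was not tested.

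**Figure D4:**
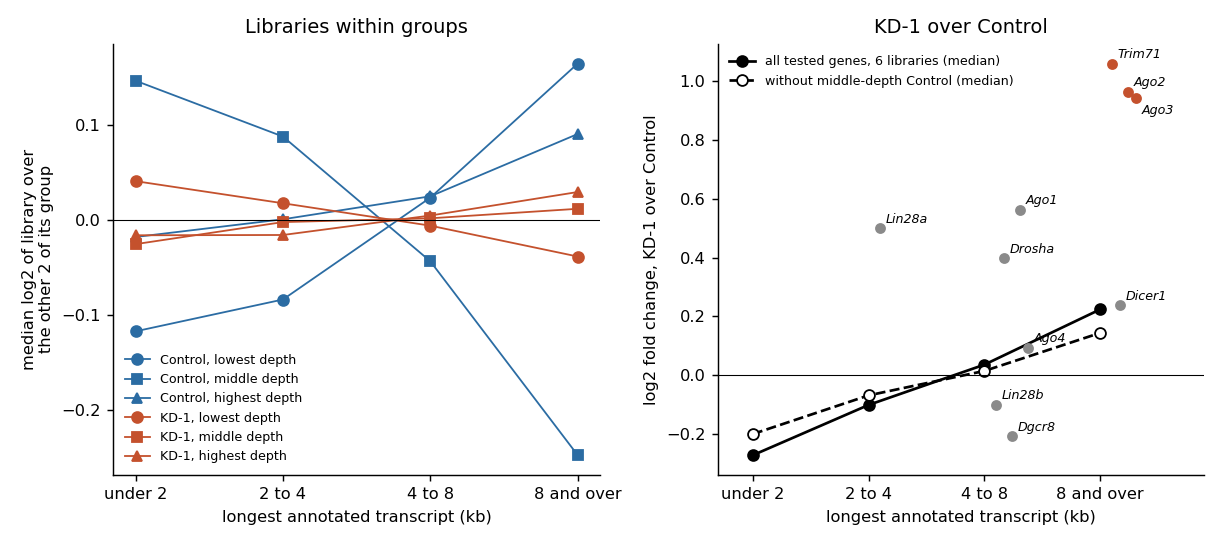
Left, median log2 ratio of each library to the other 2 of its group, by length of the longest annotated transcript (kb). Right, median log2 fold change of all tested genes in the same bins with and without the middle-depth Control library, and the 10 genes beside their bin (red, called higher). The middle-depth Control library falls from 0.146 to -0.247 as transcripts lengthen, and *Trim71*, *Ago2* and *Ago3* lie above the median of their bin.

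Other genes of the pathway were read against the 37.7% of all genes called. Of 19 cofactors of microRNA biogenesis, 0 were called higher and 1 lower (5.26% called), with a median log2 fold change of -0.0227. The one called was *Prkra*, a double-stranded RNA-binding partner of Dicer, which fell from a mean of 57.5 to 24.4 CPM (log2 fold change -1.24, SE 0.10, edgeR adjusted p = 9.3e-06). *Tarbp2*, the other such partner, stood at -0.24 on the log2 scale (edgeR adjusted p = 0.038) and *Xpo5*, the export receptor of precursors, at 0.29 (adjusted p = 0.0023), both under 1.5-fold.

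Of 10 enzymes that tail, trim or turn over microRNAs and their precursors, 0 were called higher and 2 lower (median -0.16), 2 of 10 being close to the 18.1% of all genes called lower. *Zswim8*, the substrate receptor of the ubiquitin ligase for target-directed microRNA decay, fell from 67.2 to 32.7 CPM (log2 fold change -1.04, edgeR adjusted p = 3.4e-06). *Usb1*, an exonuclease known from U6 RNA, fell from 22.8 to 13.6 CPM (-0.76). The uridylyl transferases that act with LIN28A on let-7 precursors, *Tut4* and *Tut7*, stood at -0.40 (edgeR adjusted p = 0.0028) and -0.20 (adjusted p = 0.092), and the nuclease that degrades the tailed precursor, *Dis3l2*, at -0.09 (adjusted p = 0.26).

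Of 28 effectors of silencing (the GW182 proteins, the deadenylases and decapping factors), 2 were called higher and 1 lower (median 0.158), 10.7% beside 37.7% of all genes. *Ajuba*, a LIM protein that binds Argonautes, rose from 24.8 to 43.8 CPM (log2 fold change 0.82), and *Cnot9*, the subunit of CCR4-NOT that binds GW182, rose from 146.7 to 229.2 CPM (0.64). *Cnot10*, of the same complex, fell from 92.5 to 46.8 CPM (-0.98). The GW182 genes *Tnrc6a*, *Tnrc6b* and *Tnrc6c* had log2 fold changes of 0.30, 0.19 and 0.25, of which *Tnrc6c* alone passed the adjusted p (0.022, edgeR) and none the fold threshold. Which of them passed depended on the setting. *Tnrc6a* (edgeR adjusted p = 0.066) passed under DESeq2 (0.028) and limma (0.045). In edgeR it also passed with scaling by library size only (0.039) and under a filter of 10 counts or more per library (0.038). It passed without the lowest-depth or the middle-depth Control library as well (edgeR adjusted p 0.024 and 0.017). *Tnrc6c* did not pass when any 1 KD-1 library was left out (edgeR adjusted p 0.056 to 0.066). Without the middle-depth Control library *Tnrc6b* stood at -0.0018, and with the length trend removed *Tnrc6b* and *Tnrc6c* stood at -0.20 and -0.03. With that trend removed *Tnrc6b* passed the adjusted p in the lower direction (edgeR, 0.023).

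**Figure D5:**
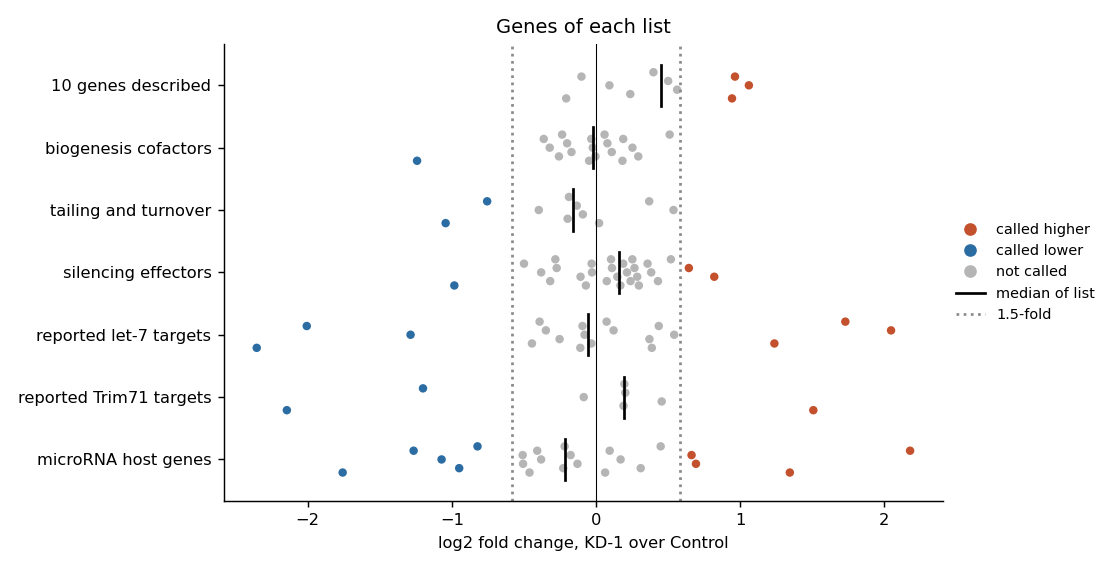
Log2 fold change (KD-1 over Control) of every tested gene of each list, with called genes in colour, the list median as a bar and dotted lines at 1.5-fold. Calls lie on both sides of 0 in the lists of silencing effectors, let-7 targets, Trim71 targets and host genes, while the biogenesis cofactors hold 1 call, on the lower side.

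Reported targets of let-7 did not move in 1 direction. Of 20, 3 were called higher and 3 lower, 30.0% beside 37.7% of all genes, with a median of -0.0562. The cell cycle genes *Cdk6* (27.9 to 115 CPM, log2 fold change 2.05) and *Ccnd1* (171.9 to 405.1 CPM, 1.24) and the proto-oncogene *Mycn* (21.6 to 71.5 CPM, 1.73) rose. Its relative *Myc* (32.4 to 6.37 CPM, -2.35), the DNA-binding factor *Arid3a* (58.7 to 14.6 CPM, -2.01) and the nuclear receptor *Nr6a1* (175.9 to 72.1 CPM, -1.29) fell. *Hmga2*, a chromatin protein and a much studied let-7 target, stood at -0.44 on that scale (edgeR adjusted p = 1.6e-04), under 1.5-fold.

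Genes chosen by sequence gave a similar picture. Outside the 10 genes, 567 tested genes held a let-7 8-mer in the canonical 3′ UTR. Of these, 135 were called higher (23.8%) and 96 lower (16.9%), 40.7% in all, with a median log2 fold change of 0.0844. The 578 with a miR-290 and miR-302 8-mer had 112 higher (19.4%) and 82 lower (14.2%), 33.6% in all, and a median of 0.0491. All 14057 tested genes with a 3′ UTR had 37.7% called, 19.1% higher and 18.5% lower, and a median of -0.0234. The groups differ in 3′ UTR length, with a median of 2949 bases for let-7, 3227 for miR-290 and miR-302 and 1395 for all, and length itself moved with the fold change as described above. With the trend with transcript length removed, 124 genes with a let-7 8-mer were called higher and 107 lower, beside 2989 and 2518 of all genes. By number of let-7 8-mers, the median log2 fold change was -0.0268 with 0 (13490 genes), 0.0664 with 1 (537 genes) and 0.213 with 2 or more (30 genes). The share called did not follow that order, at 37.5%, 41.2% and 33.3%, with 5 genes higher and 5 lower in the last group, and the median 3′ UTR length rose over the groups from 1348 to 2865 and 4612 bases. The value for 1 site depended on the transcript searched. The canonical transcript of *Hmga2* has a 3′ UTR of 37 bases with no match, while its longest annotated 3′ UTR, of 3021 bases, holds 4, of which 1 is an 8-mer. When the longest 3′ UTR of each gene was searched, an alternative added after the canonical values were seen, 704 genes held the 8-mer and 39.8% were called, and the medians were -0.0239, 9.66e-05 and 0.189 for 0, 1 and 2 or more. The let-7 matches in the 10 genes were as many in both searches.

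Of 8 reported targets of Trim71, 1 was called higher and 2 lower (median 0.194), 37.5% beside 37.7% of all genes, so the count says nothing particular to this list. *Egr1*, an immediate early transcription factor, rose from 2.69 to 7.71 CPM (log2 fold change 1.51), while the semaphorin receptor *Plxnb2* fell from 79.0 to 34.4 CPM (-1.20). The activin subunit *Inhbb* was called lower from 20, 49 and 63 counts in Control and 10, 15 and 20 in KD-1. It passed the filter only through Control and is given no fold. Of 28 genes that host microRNAs, 23 could be tested, of which 4 rose and 5 fell (median -0.218), 39.1% beside the same 37.7%. *Myh6* was called higher from 2, 8 and 5 counts in Control and 31, 24 and 55 in KD-1, so that it passed the filter only through KD-1 and is given no fold. The others with the largest rise were *Sfmbt2* (18.5 to 46.8 CPM, 1.34) and *Pank1* (18.3 to 29.3 CPM, 0.69), and with the largest fall *Ctdspl* (17.3 to 5.11 CPM, -1.76), *Slit3* (6.41 to 2.67 CPM, -1.27) and *Evl* (55.3 to 26.4 CPM, -1.07). A host message does not give the level of its microRNA, and *Dleu2*, Mir17hg, Mir99ahg and *H19* were not analysed here.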

How the data were processed

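Total RNA was sequenced as paired-end reads from TruSeq libraries, and the authors quantified them with Salmon (v1.1) against a Gencode gene model. The deposited values are estimated counts (expected counts) per Ensembl gene, in whole numbers and not normalised; the genome build and the use of strand are not given in the sources used here. Salmon shares reads between overlapping or similar transcripts by probability, so such genes are uncertain. Column names give the group of each library but not its replicate number.

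Counts were tested with edgeR 4.0.16 (R 4.3.3; filterByExpr, TMM, robust quasi-likelihood fit, Benjamini-Hochberg adjustment over 15110 genes), with DESeq2 1.42.0 and limma 3.58.1 as alternatives. CPM use TMM-scaled library sizes. p-values measure only the spread between these libraries, which may be technical. Same-group libraries differed by more than counting noise (chi-square per degree of freedom 4.85 to 36.5), so none was counted as a duplicate. On counts simulated with a log2 fold change of 1.5 the fit called 166 of 194 changed genes, and 160 of the 171 among them with higher counts. Smaller changes, such as those of the genes described here, were not simulated. A bar for recovery first set on all changed genes was missed, and it was then set on those 171. The 3′ UTRs came from GENCODE vM39; the canonical transcript was searched first, and the longest 3′ UTR was added after its values were seen.

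The 10 genes, the gene lists and the markers were chosen with earlier results of these data known. Named were the 10 genes, 10 direct partners, and up to 3 called genes with the largest rise and fall in each list.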

Additional observations from a re-analysis of the deposited data

How the results depend on the processing

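*Trim71* was called under each alternative run, and *Ago2* and *Ago3* under each except the one that required an absolute log2 fold change over 1. With an absolute log2 fold change over 1 required, 1 of the 10 genes was called, and with no fold threshold 7. The same changes gave 3274 and 9597 calls over all genes, 116 and 384 among genes with a let-7 site, 1 and 6 among tailing and turnover factors, 0 and 16 among silencing effectors and 5 and 17 among host genes. With no fold threshold, 10 biogenesis cofactors, 13 let-7 targets and 5 Trim71 targets were called. Any 7-mer match as a site gave 640 calls in place of 231, since more genes hold one, and the longest 3′ UTR gave 280.

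Leaving out each library in turn gave 3 to 4 calls among the 10 genes, 5176 to 6113 over all genes, 212 to 238 among genes with a let-7 site, 2 to 3 among tailing factors, 3 to 4 among silencing effectors, 8 to 9 among hosts, and 1, 6 and 3 throughout for cofactors, let-7 targets and Trim71 targets. The log2 difference in the *Lin28a* to *Lin28b* ratio ran from 0.56 to 0.64 and that of the *Ago2* share from 5.03 to 7.87 percentage points. *Ago4* reversed to -0.15 without the middle-depth Control library and to -0.00022 without the lowest-depth KD-1 library. *Tnrc6b* reversed to -0.0018 without the middle-depth Control library and to -0.20 with the length trend removed, as did *Tnrc6c* to -0.030, and without the lowest-depth Control library these genes reached 0.43 (*Ago4*) and 0.34 (*Tnrc6b*). The cause was not tested. No paired analysis was possible because the columns carry no replicate number that matches the labels. With 3 libraries a group, no exact test of a ratio could go below 0.1.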
